A study of Mus musculus with 15 samples.

Results

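The genes described here are 10 immediate early genes that are also known to be induced when living tissue is dissociated into single cells: Fos, Fosb, Jun, Junb, Jund, Egr1, Ier2, Atf3, Btg2 and Dusp1. They were taken by name from a table of 17090 mouse genes, with the 1 transcript per gene that the authors marked as best, and all 10 were present in the table. RNA was sequenced from enteric neural crest-derived cells (ENCDC), the precursors of the enteric nervous system, sorted by fluorescence from single fetal organs. At E11.5 there were 4 stomachs from Rar[alpha]DNLoxP/+; Wnt1Cre; ROSA26TdTomato embryos and 4 from Wnt1Cre; ROSA26TdTomato control embryos. At E13.5 there were 3 colons from Rar[alpha]DNLoxP/+; RETCreERT2EYFPTandem embryos and 4 from RETCreERT2-EYFPTandem control embryos, all exposed to tamoxifen at E10.5. After recombination by Cre, the first genotype at each age produced RaraDN, a dominant-negative retinoic acid receptor, and the question was how its presence changed gene expression in ENCDC. The labels give a mixed background for all samples, while the study's methods give C57BL/6J for the RaraDN, Wnt1Cre and TdTomato lines. Wnt1Cre is active in the central nervous system and in many neural crest derivatives, and RETCreERT2 recombines RET-expressing cells, so neither driver is limited to ENCDC. Age, organ, Cre driver, reporter and tamoxifen all differed between the 2 sets and cannot be told apart.

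Immediate early genes are transcribed within minutes of a stimulus and need no new protein synthesis. Growth factors, neuronal activity and many kinds of stress reach them through MAP kinase pathways, serum response factor and CREB. Fos and Jun family proteins pair to form the transcription factor AP-1, EGR1 is a zinc finger transcription factor, ATF3 is a stress-induced member of the ATF/CREB family, BTG2 restrains proliferation, DUSP1 removes phosphate from MAP kinases and so ends the signal, and IER2 is a nuclear protein with a less settled role. In embryos several of them have roles of their own, and Btg2 is known in neural precursors that are about to make neurons. In all 4 groups, organs were digested with collagenase and dispase at body temperature, broken up with a pipette, sorted and frozen before RNA was made, and transcripts made during handling and in the embryo cannot be told apart in these values.

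Libraries held 6428930 to 12121327 counts in RaraDN E11.5 stomach, 8585739 to 11043148 counts in control E11.5 stomach, 6065029 to 10105584 counts in RaraDN E13.5 colon and 7190882 to 9996628 counts in control E13.5 colon. Levels are given as CPM, which are counts scaled to a common library total, after TMM scaling, edgeR's correction for differences in composition, over all 15 libraries. Among 12 genes that define ENCDC, Tfap2b was at 0 counts in all 3 RaraDN E13.5 colon libraries, and the other 11 were found in every group. The summed level of the 12 was 1618 to 2385 CPM in RaraDN E11.5 stomach and 3418 to 4883 CPM in control E11.5 stomach, and the ranges at E13.5 were 2920 to 3341 CPM in RaraDN colon and 2140 to 2811 CPM in control colon. Genes with at least 1 count numbered 12510 to 13221 in RaraDN and 14559 to 14870 in control E11.5 stomach, and 13536 to 13900 in RaraDN and 12354 to 13050 in control E13.5 colon, so the groups lay apart at both ages and in opposite directions. Other cells were also represented, and the part of these differences in the results below was not tested. The summed level of 12 leukocyte and macrophage genes was 35.8 to 226 CPM in RaraDN E11.5 stomach and 0.510 to 22.6 CPM in control E11.5 stomach. Endothelial genes (7) summed to 0 to 3.47 CPM in RaraDN and 33.5 to 68.2 CPM in control E11.5 stomach. Mesenchyme and smooth muscle genes (11) summed to 251 to 483 CPM in RaraDN and 108 to 299 CPM in control E11.5 stomach. In E13.5 colon they summed to 70.1 to 136 CPM in RaraDN and 158 to 318 CPM in control, with no overlap. Hemoglobin genes reached 827 and 4065 CPM in control E13.5 colon libraries 2 and 3, against 0.469 to 77.8 CPM in RaraDN E13.5 colon. Rara itself, which encodes the normal receptor, was at 72.1 to 129 CPM in RaraDN and 73.5 to 104 CPM in control E11.5 stomach, and at 47.7 to 94.1 CPM in RaraDN and 57.3 to 84.9 CPM in control E13.5 colon. No source used here says if reads from the RaraDN cassette were assigned to Rara, so this does not check the genotype.

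All 10 genes had counts in every group, but at very different levels. Per kilobase of transcript, Jun led in RaraDN E11.5 stomach with 270.3 ± 92.6 CPM per kb (mean ± SD, n = 4), and Ier2 led in the other 3 groups with 186 ± 72.7 CPM per kb in control E11.5 stomach (n = 4), 210.1 ± 80.8 CPM per kb in RaraDN E13.5 colon (n = 3) and 258 ± 65.0 CPM per kb in control E13.5 colon (n = 4). Fosb, a Fos relative, and Atf3 were the 2 lowest in every group. Fosb was at 0.908 ± 0.651 CPM per kb in RaraDN and 0.536 ± 0.313 CPM per kb in control E11.5 stomach, and Atf3 at 5.55 ± 10.9 CPM per kb in RaraDN and 0.371 ± 0.193 CPM per kb in control E11.5 stomach. Between these ends lay Fos, Jund, Egr1, Dusp1, Junb and Btg2, whose order changed from group to group. Most neighbours in that order could not be separated, since the ranges of their levels over libraries overlapped for 9 of 9 neighbouring pairs in RaraDN and 6 of 9 in control E11.5 stomach, and for 6 of 9 in RaraDN and 7 of 9 in control E13.5 colon. In both colon groups every Ier2 value lay above every Jun value.

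**Figure D1:**
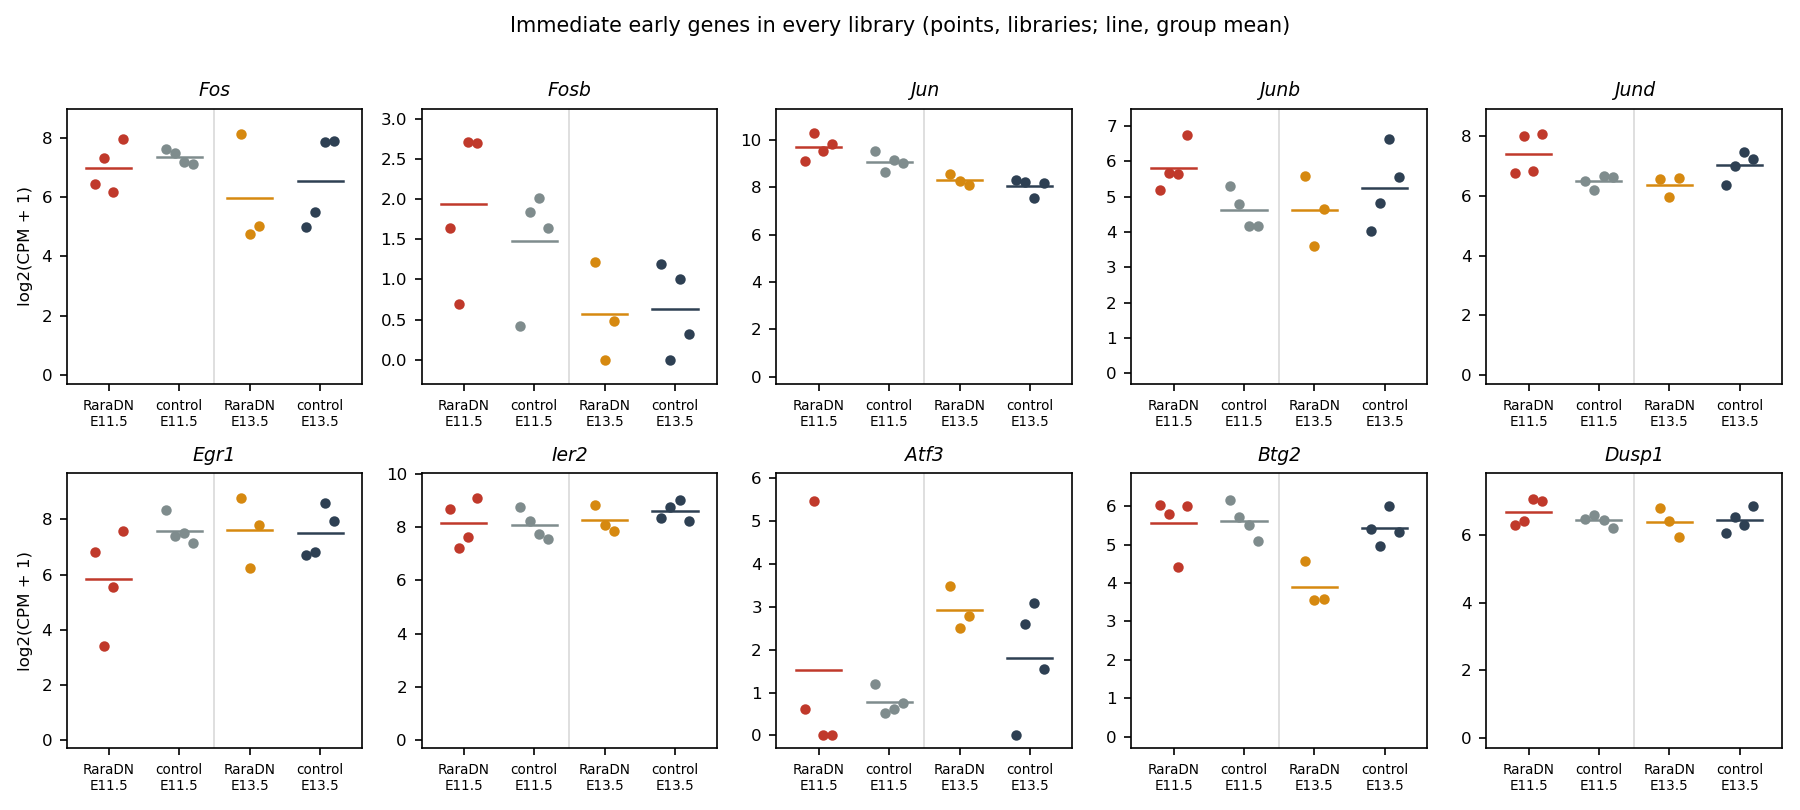
Levels of the 10 genes in every library, as log2(CPM + 1) on the vertical axis, with RaraDN and control E11.5 stomach on the left of each panel and RaraDN and control E13.5 colon on the right. Points are libraries and lines are group means. Fos and Egr1 spread widely within groups, Btg2 was lower in all 3 RaraDN colon libraries, and Atf3 was high in 1 RaraDN stomach library, at 43.5 CPM.

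Immediate early promoters are known for short elements that are bound before a stimulus arrives. RefSeq (GRCm38.p6) windows were found for 8 of the 10 genes, and not for Egr1 and Ier2. The 250 bases before the start were searched on both strands for TGACGTCA, the full cAMP response element bound by CREB and ATF proteins, for its core TGACG, which the full site contains on each strand, for TGANTCA, the AP-1 site, and for TGACATCA, a variant known from the Jun promoter. The full element was present in Btg2, beginning 166 bases before the start, and in Dusp1, beginning 143 bases before it, and in 1.55% of all 32851 windows. The core was present in 6 of the 8 windows (Fos, Fosb, Junb, Atf3, Btg2 and Dusp1) and in 17.8% of all windows. TGACATCA was present in Jun, 45 bases before the start, and in 2.93% of all windows, and TGANTCA was in none of the 8 and in 6.75% of all windows. Jund, with a called difference between the ages below, held none of the 4 motifs in its window, and that window is not shown. A match is a description of the sequence only. The windows of Btg2 and Jun, which carry called differences below, are shown with those of Fos and Dusp1 for comparison, 5′ to 3′ on the strand of the gene, with matches in capitals.
Btg2 (chr1:134079156-134079405, minus strand): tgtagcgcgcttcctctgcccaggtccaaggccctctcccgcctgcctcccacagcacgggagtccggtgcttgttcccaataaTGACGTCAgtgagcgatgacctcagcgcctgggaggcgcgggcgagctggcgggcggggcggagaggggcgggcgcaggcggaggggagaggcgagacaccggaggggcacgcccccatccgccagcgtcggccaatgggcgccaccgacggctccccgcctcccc
Jun (chr4:95052223-95052472, minus strand): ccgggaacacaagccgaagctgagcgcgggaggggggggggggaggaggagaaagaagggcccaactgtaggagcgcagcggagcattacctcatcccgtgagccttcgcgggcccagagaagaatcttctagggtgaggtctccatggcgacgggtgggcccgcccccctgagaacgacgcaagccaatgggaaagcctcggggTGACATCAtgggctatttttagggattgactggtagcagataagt
Fos (chr12:85473640-85473889, plus strand): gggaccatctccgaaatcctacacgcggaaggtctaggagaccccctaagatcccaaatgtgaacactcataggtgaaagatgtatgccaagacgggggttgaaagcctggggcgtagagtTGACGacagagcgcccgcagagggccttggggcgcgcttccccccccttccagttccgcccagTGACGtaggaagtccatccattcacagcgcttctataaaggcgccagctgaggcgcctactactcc
Dusp1 (chr17:26508473-26508722, minus strand): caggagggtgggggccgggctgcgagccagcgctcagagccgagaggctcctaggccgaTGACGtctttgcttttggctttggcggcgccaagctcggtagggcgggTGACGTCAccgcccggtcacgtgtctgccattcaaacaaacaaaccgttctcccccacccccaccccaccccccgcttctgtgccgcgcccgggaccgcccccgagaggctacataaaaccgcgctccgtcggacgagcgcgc

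At E11.5, none of the 10 genes passed the test between RaraDN and control stomach ENCDC. Junb, Jund, Fosb and Jun had the highest log2 fold changes and Egr1 the lowest, and those of Fos, Ier2, Btg2 and Dusp1 lay between -0.26 and 0.28. The test was the quasi-likelihood test of edgeR, with p-values adjusted by Benjamini-Hochberg over the 12427 genes that had enough counts, and 9 of the 10 genes were among them. In this comparison 6.00% of all genes tested had an adjusted p below 0.05, and 0 of the 9 did. Without adjustment 3 of the 9 had p below 0.05, compared with 19.4% of all genes tested. limma-voom called 0, compared with 7.08% of all genes, and DESeq2 called 2, Junb and Jund, compared with 11.0%. Their median log2 fold change was 0.28, with 7 positive and 2 negative values, against -0.047 for all genes tested.

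Jund, a Jun family member that is usually present without stimulation, was at 108, 256, 114 and 270.0 CPM in RaraDN E11.5 stomach, against 90.9, 72.0, 100.1 and 99.3 CPM in control E11.5 stomach. It was the 1 gene of the 9 whose groups did not overlap, which held for 15.7% of all genes tested. RaraDN libraries 2 and 4 were far above the rest. The fitted log2 fold change was 1.02 (SE 0.32, edgeR adjusted p = 0.0903), and it passed at adjusted p = 0.0225 without RaraDN library 1 and at adjusted p = 0.0490 without RaraDN library 3. Junb, which can hold back growth-promoting actions of Jun, was at 35.8, 50.1, 49.0 and 107 CPM in RaraDN stomach, against 38.8, 26.6, 17.0 and 17.0 CPM in control stomach. Its groups overlapped through RaraDN library 1 and control library 1, with a log2 fold change of 1.25 (SE 0.40, edgeR adjusted p = 0.0992) that passed at adjusted p = 0.0439 without RaraDN library 1.

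Jun, the AP-1 subunit that is the classical partner of Fos, was at 549, 1248, 749 and 901 CPM in RaraDN E11.5 stomach, against 736, 395, 571 and 521 CPM in control stomach. RaraDN libraries 2, 3 and 4 were above all 4 control libraries, but RaraDN library 1 was within their range (log2 fold change 0.61, SE 0.26, edgeR adjusted p = 0.233). Among the RaraDN libraries, library 2 also had the highest summed leukocyte and macrophage level, 226 CPM, and library 4 the next, 185 CPM, with 91.5 and 35.8 CPM in RaraDN libraries 1 and 3. The summed mesenchyme and smooth muscle level was likewise highest in RaraDN libraries 2 and 4, at 483 and 416 CPM. It was 261 and 251 CPM in RaraDN libraries 1 and 3. The part of these cells in the values was not tested, and in sorted bulk RNA fewer cells of a type and less RNA per cell cannot be told apart.

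Egr1 was at 112, 9.72, 46.0 and 190.4 CPM in RaraDN E11.5 stomach, against 322, 167, 182 and 139 CPM in control stomach. Only RaraDN library 4 reached the control range, while RaraDN library 2 was lower than any other library of the series. With such a spread the log2 fold change of -1.20 (SE 0.66) did not pass (edgeR adjusted p = 0.356). Fos was at 86.1, 156, 70.2 and 247 CPM in RaraDN stomach, against 197, 179, 145 and 137 CPM in control stomach, so that its highest and its lowest E11.5 values both came from RaraDN libraries (log2 fold change -0.26, 95% interval -1.03 to 0.51). Fosb did not exceed 5.53 CPM in any library (log2 fold change 0.73, SE 0.92, edgeR adjusted p = 0.731). Ier2 was at 149 to 546 CPM in RaraDN and 188 to 434 CPM in control stomach, Btg2 at 20.5 to 64.6 CPM in RaraDN and 33.2 to 70.7 CPM in control, and Dusp1 at 77.4 to 132 CPM in RaraDN and 72.8 to 95.8 CPM in control. Their log2 fold changes had 95% intervals of -0.71 to 1.06 for Ier2, -0.81 to 0.82 for Btg2 and -0.23 to 0.78 for Dusp1.

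Atf3 had too few counts to be tested at E11.5. It was at 0.531, 43.5, 0 and 0 CPM in RaraDN stomach, against 1.29, 0.431, 0.545 and 0.680 CPM in control stomach. All but 1 of the 8 libraries were thus near 0, and RaraDN library 2, with 564 counts, stood alone. A count of 0 allowed up to 0.436 CPM in RaraDN library 3 and 0.342 CPM in RaraDN library 4, counting error only. The same RaraDN library 2 had the highest Jun and the lowest Egr1, Fosb and Ier2 of its group.

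**Figure D2:**
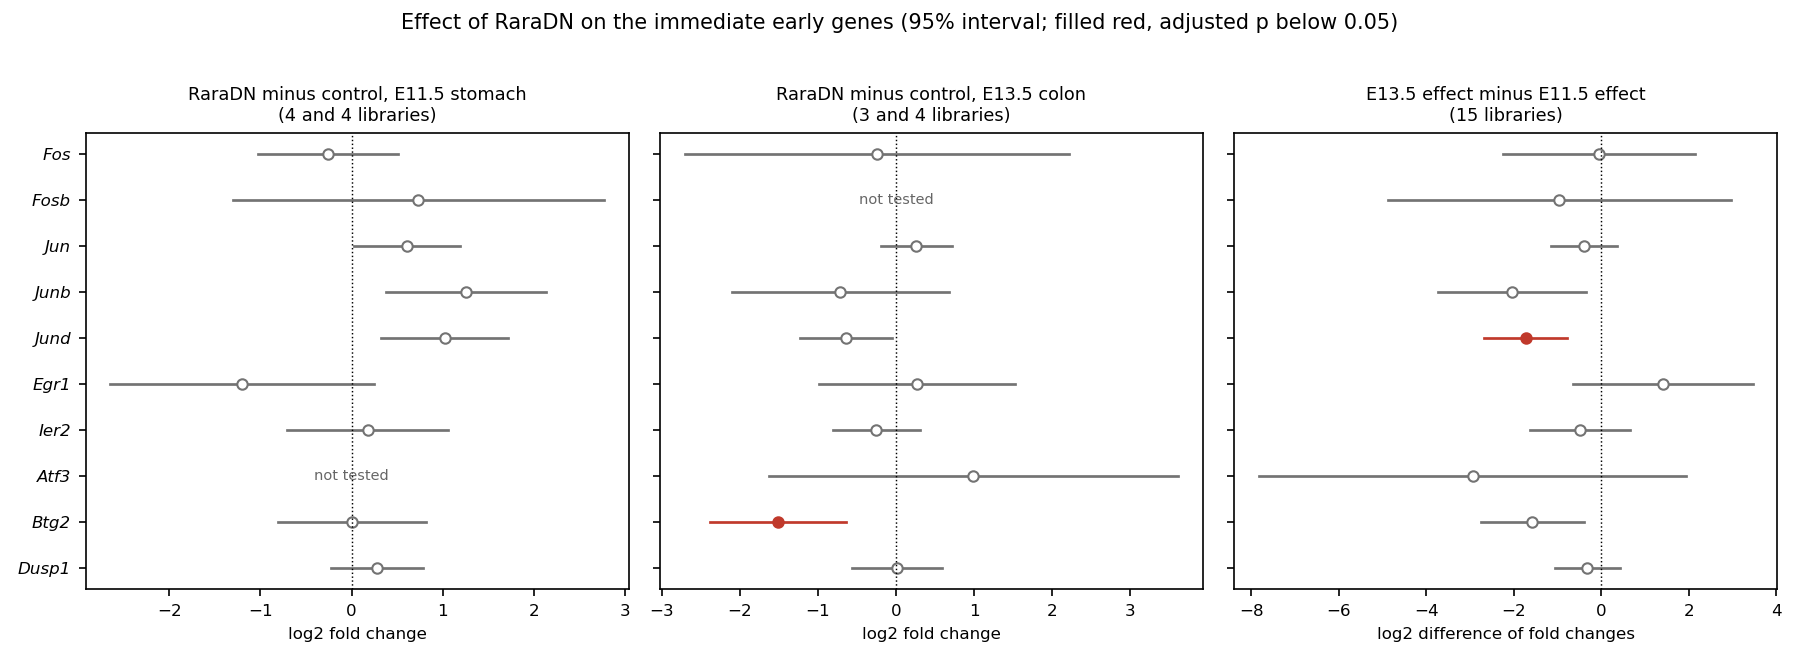
Log2 fold changes of the 10 genes, RaraDN minus control, for each age, with the difference between the 2 effects on the right, each with its 95% interval. Filled red points had an adjusted p below 0.05, which held for Btg2 at E13.5 (-1.52) and for Jund in the difference between the ages (-1.73).

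At E13.5, Btg2 was lower in RaraDN colon ENCDC than in control colon ENCDC and was the only gene of the 10 that passed the test. Jund and Junb had negative fold changes and Jun a small positive one, none of which passed, and Fos and Egr1 differed more between libraries than between groups. Of the 9 genes with enough counts, 1 had an adjusted p below 0.05, compared with 8.33% of the 12085 genes tested, and 5.55% were lower in RaraDN. The median log2 fold change of the 9 was -0.25, against 0.061 for all genes tested.

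Btg2 was at 22.6, 10.8 and 11.02 CPM in RaraDN E13.5 colon, against 41.3, 30.1, 63.0 and 39.5 CPM in control E13.5 colon. The groups did not overlap, as was the case for 25.7% of all genes tested, and the fitted level in RaraDN was 0.349 of that in control (log2 fold change -1.52, SE 0.39, edgeR adjusted p = 0.0408). This call was close to the threshold. It held without control library 2 (adjusted p = 0.0422) and was lost without any other single library, with adjusted p of 0.0547 to 0.161 and log2 fold changes of -1.95 to -1.31. Control libraries 2 and 3, which were rich in hemoglobin, held the lowest and the highest control value of Btg2, and without both the log2 fold change was -1.43 (adjusted p = 0.127).

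Jund was at 93.7, 61.8 and 96.0 CPM in RaraDN E13.5 colon, against 82.6, 128, 177 and 152 CPM in control colon. Control library 1 lay among the RaraDN libraries and the other 3 above them. The log2 fold change was -0.64 (SE 0.26, edgeR adjusted p = 0.169). It was -0.82 without control library 1 (adjusted p = 0.0484), and 0.10 once the trend of each library with transcript length and GC content had been removed, which for all genes tested gave a median of -0.11. Junb was at 47.0, 11.3 and 24.3 CPM in RaraDN colon, against 15.2, 27.3, 98.3 and 45.7 CPM in control colon (log2 fold change -0.71, SE 0.63, edgeR adjusted p = 0.553). That value was -1.34 without RaraDN library 1, -0.34 without RaraDN library 2, -0.079 without control library 3 and -0.092 with the trend removed. Jun was at 375, 306 and 276 CPM in RaraDN colon, against 319, 294, 186 and 289 CPM in control colon, with a log2 fold change of 0.26 (SE 0.20, edgeR adjusted p = 0.498).

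Fos was at 277.0, 26.1 and 31.8 CPM in RaraDN E13.5 colon, against 30.7, 43.5, 229 and 238 CPM in control colon. Each group thus held libraries with little Fos and libraries with about as much as in the stomach, and the highest and lowest values of a group differed 10.6-fold in RaraDN and 7.73-fold in control. The log2 fold change of -0.25 had a 95% interval of -2.71 to 2.22. Egr1 followed a similar order of libraries, at 436, 74.9 and 224 CPM in RaraDN colon, against 104, 112, 381 and 242 CPM in control colon (log2 fold change 0.27, SE 0.56, edgeR adjusted p = 0.831). Atf3 was at 10.1, 4.69 and 5.90 CPM in RaraDN colon, against 0, 5.07, 7.54 and 1.91 CPM in control colon (log2 fold change 0.99, SE 1.18, edgeR adjusted p = 0.680). Ier2 was at 229 to 459.6 CPM in RaraDN and 303 to 512 CPM in control colon, Dusp1 was at 60.8 to 111 CPM in RaraDN and 65.5 to 114 CPM in control colon, and Fosb, at 0 to 1.33 CPM, was too low to test. The 95% interval of Dusp1 ran from -0.57 to 0.59.

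The effect of RaraDN on Jund differed between the 2 ages, with a positive log2 fold change in the stomach and a negative one in the colon, neither of which passed by itself. In a fit of all 15 libraries the E13.5 effect minus the E11.5 effect was -1.73 on the log2 scale for Jund (SE 0.45, edgeR adjusted p = 0.0171). It was 1 of 10 genes called, where 14.5% of the 13412 genes tested were called and the median difference over all of them was 0.12. Without RaraDN E13.5 colon library 2 the difference was -1.55 (adjusted p = 0.0579), without both hemoglobin-rich control libraries -1.60 (adjusted p = 0.0665), and with the length and GC trend removed -0.74 (adjusted p = 0.117), a setting in which Btg2 was called in its place (-2.24, adjusted p = 0.0145). Junb (-2.04, SE 0.80, edgeR adjusted p = 0.0974) and Btg2 (-1.58, SE 0.56, edgeR adjusted p = 0.0669) had differences of similar size that did not pass, although Junb passed without control E13.5 colon library 1 (-2.34, adjusted p = 0.0452), and Btg2 without RaraDN E11.5 stomach library 3 (-1.84, adjusted p = 0.0184) or RaraDN E13.5 colon library 1 (-2.01, adjusted p = 0.0436). None of the other 7 passed at an unadjusted p below 0.05. Since age could not be told apart from organ, Cre driver, reporter and tamoxifen, the difference belongs to the 2 sets of libraries as a whole.

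In control ENCDC, Jun was lower in the E13.5 colon than in the E11.5 stomach, at 186 to 319 CPM against 395 to 736 CPM. The difference was -1.03 on the log2 scale (SE 0.24, edgeR adjusted p = 0.00526), where the median over all genes was -0.20. It was 1 of 10 genes called, compared with 28.5% of all 13412 genes tested. With the length and GC trend removed it was -0.36 (adjusted p = 0.274), and without both hemoglobin-rich colon libraries -0.83 (adjusted p = 0.0790). In RaraDN libraries Jun was at 276 to 375 CPM in the colon and 549 to 1248 CPM in the stomach, a difference that was not tested. The share of all genes whose ranges lay apart between the ages was not computed. The other 9 genes did not pass between the controls. Their values spanned 30.7 to 238 CPM in colon and 137 to 197 CPM in stomach for Fos, and 104 to 381 CPM in colon and 139 to 322 CPM in stomach for Egr1.

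Within groups, Fos and Egr1 were among the most variable genes of the series. Their within-group SDs were 1.23 and 1.24 on the log2 CPM scale, larger than in 98.7% and 98.8% of 7583 genes with a mean log2 CPM above 4, for which the median SD was 0.39. Junb followed with 0.87, larger than in 94.5% of these genes. Ier2 (0.61), Btg2 (0.58) and Jund (0.49) were above the median, Jun (0.38) was at it, and Dusp1 (0.34) was below it. Fos varied little in the control stomach, with an SD of 0.25, and widely in RaraDN colon, with an SD of 1.88, and in control colon, with an SD of 1.55. Summed over the 10 genes, levels were 1383 to 2456 CPM in RaraDN and 1211 to 1979 CPM in control E11.5 stomach, and 851 to 1833 CPM in RaraDN and 980.1 to 1732 CPM in control E13.5 colon, so the ranges overlapped at both ages.

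**Figure D3:**
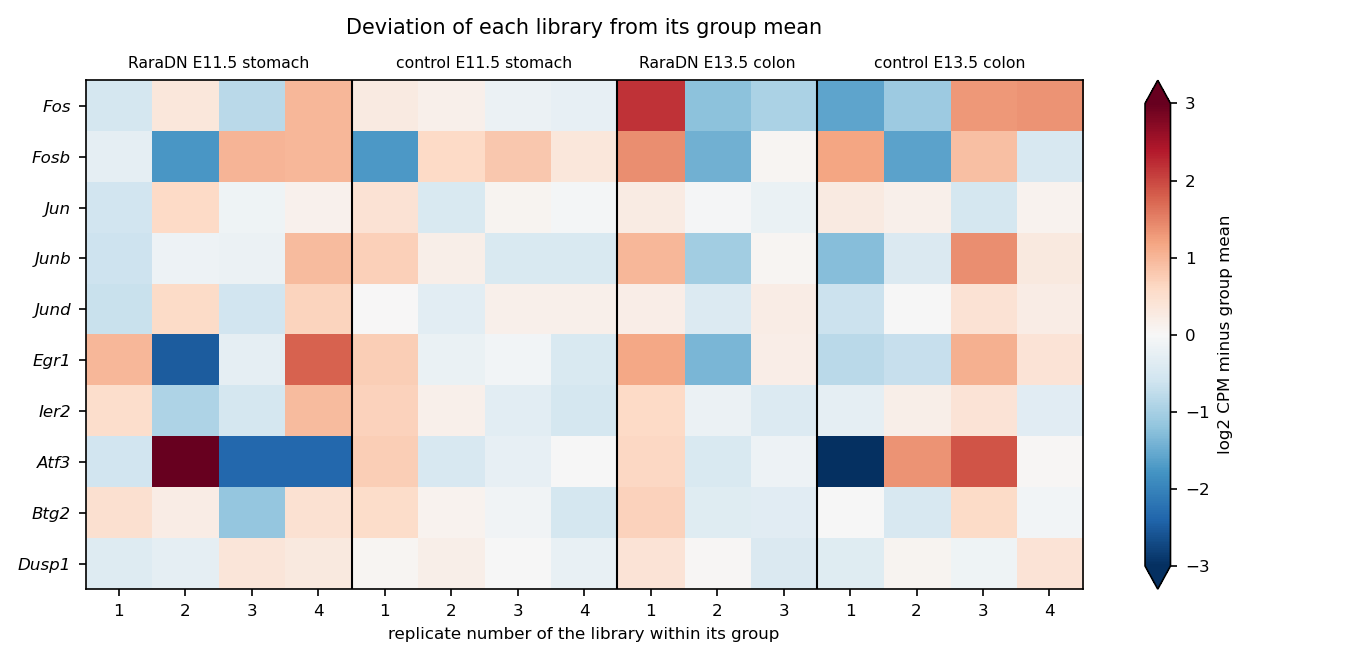
Deviation of each library from its group mean in log2 CPM (colour) for the 10 genes (rows) and 15 libraries (columns, by group and replicate number). RaraDN E13.5 colon library 1 was the highest of its group for 9 of the 10 genes, and RaraDN E11.5 stomach library 2 combined high Atf3 and Jun with low Egr1.

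High values often fell in the same libraries. RaraDN colon library 1 was the highest of its group for 9 of the 10 genes, all but Jund, and RaraDN colon library 2 was the lowest for 7. Control colon library 3 was the highest of its group for 6 genes and control colon library 1 the lowest for 6. In the stomach, control library 1 was the highest for 7 genes and RaraDN library 4 for 5. With group means removed, Pearson's r over the 15 libraries was above 0 for 35 of the 45 pairs of these genes and above 0.5 for 12. The closest pairs were Fos with Junb (r = 0.85), Egr1 with Ier2 (r = 0.79), and Ier2 with Btg2 (r = 0.66). Over the 7 colon libraries alone, Junb with Egr1 reached r = 0.95 and Fos with Egr1 r = 0.88, while Fos with Egr1 had r = 0.18 over the 8 stomach libraries. Jun had r = 0.095 with Fos and -0.041 with Junb over the 15 libraries, made up of r = 0.50 and 0.40 over the stomach libraries and -0.12 and -0.48 over the colon libraries. All genes of a library share its depth, cells and handling, so these values describe libraries and are not independent. The same counts and pairs were not computed for other genes, so the pattern is not shown to be particular to these 10.

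Among the 11636 genes ranked outside the list, Zfp36, an RNA-binding protein that speeds the decay of many induced transcripts and is itself an immediate early gene, was among those that varied most like Fos over the 15 libraries (r = 0.84, with group means removed). The 5 that came closest to Fos were Atp6v0e2 (r = 0.86), 2700081L22Rik (r = 0.86), Acvrl1 (r = 0.84), Zfp36 and Arhgap6 (r = 0.82). The mean of the list was taken over the 8 genes tested at both ages, without Fosb and Atf3. The 5 closest to that mean were Miip (r = 0.87), Rpgrip1 (r = 0.84), Arhgap6 (r = 0.81), Efha1 (r = 0.80) and Atp6v0e2 (r = 0.79). Of these, 2700081L22Rik (0 to 4.21 CPM) and Arhgap6 (0 to 8.54 CPM) were low in all libraries.

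Other immediate early genes, from a list of induced transcription factors, signal regulators and secreted proteins, included some that differed at E11.5. Of 50 tested, 6 passed, compared with 6.00% of all genes, with 5 higher and 1 lower in RaraDN stomach and a median log2 fold change of 0.44 against -0.047 for all genes tested. Gadd45b, a stress sensor that activates p38 and JNK signalling, averaged 50.1 ± 25.3 CPM in RaraDN and 0.590 ± 0.529 CPM in control stomach (SD, n = 4 each), a log2 fold change of 6.37 (SE 0.81, edgeR adjusted p = 0.0013). Cebpb, a transcription factor of inflammation and differentiation that is also abundant in macrophages, averaged 32.96 ± 10.1 CPM in RaraDN and 4.15 ± 1.00 CPM in control stomach (log2 fold change 2.97, SE 0.38, edgeR adjusted p = 0.0014). Plk2, a kinase of the cell cycle and synapse, was at 85.4 to 87.7 CPM in RaraDN and 28.6 to 34.5 CPM in control stomach (log2 fold change 1.42, SE 0.20, edgeR adjusted p = 0.0026). Cyr61, a secreted matrix protein, and Zfp36 were also higher in RaraDN, with log2 fold changes of 1.49 (SE 0.28, edgeR adjusted p = 0.0111) and 1.59 (SE 0.34, edgeR adjusted p = 0.0194). The Zfp36 call was lost without control library 1, 3 or 4 (adjusted p up to 0.0789) and in 1 fit of all 4 groups (adjusted p = 0.0590). Arc, an activity-induced gene of neurons, was the 1 that was lower, with 2 counts in all in the RaraDN stomach libraries and 294 in the control stomach libraries. The summed leukocyte and macrophage level was higher in every RaraDN stomach library than in any control stomach library, and its part in these genes was not tested.

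**Figure D4:**
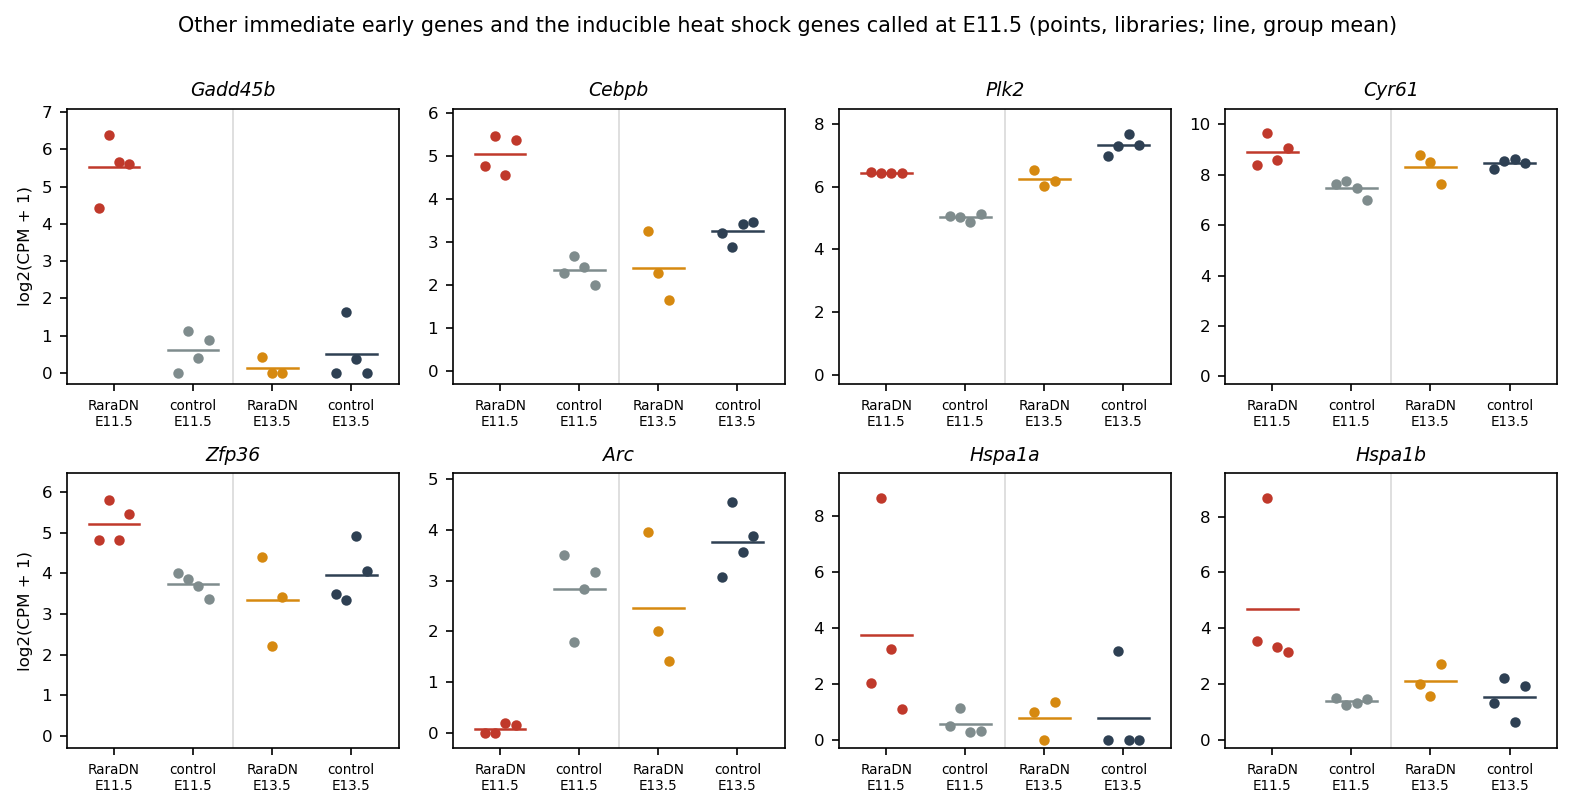
Levels of 6 other immediate early genes and of the heat shock genes Hspa1a and Hspa1b in every library, as log2(CPM + 1) on the vertical axis, with RaraDN left of control at each age. Points are libraries and lines are group means. The 6 were shown because they were called at E11.5. The 4 RaraDN stomach values of Gadd45b, Cebpb, Plk2, Cyr61 and Zfp36 were above all control stomach values, and those of Arc were below them. Groups did not overlap for 15.7% of all genes tested at E11.5.

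At E13.5, 2 of 48 other immediate early genes passed, both lower in RaraDN colon, compared with 5.55% of all genes that were lower, and their median log2 fold change was -0.33 against 0.061 for all genes tested. Plk2 averaged 76.1 ± 13.5 CPM in RaraDN colon (SD, n = 3) and 162 ± 32.8 CPM in control colon (n = 4), with a log2 fold change of -1.05 (SE 0.20, edgeR adjusted p = 0.0145). Gadd45a, a DNA damage-induced relative of Gadd45b, averaged 25.4 ± 2.91 CPM in RaraDN colon and 56.0 ± 13.0 CPM in control colon (log2 fold change -1.10, SE 0.26, edgeR adjusted p = 0.0298). The Plk2 call was lost without any 1 of the 3 RaraDN libraries (adjusted p up to 0.0772) and without both hemoglobin-rich libraries (adjusted p = 0.0898), and the Gadd45a call without 5 of the 7 libraries (adjusted p up to 0.155), namely all 3 RaraDN libraries and control libraries 2 and 3. Gadd45a was also lost without both hemoglobin-rich libraries (-0.88, adjusted p = 0.135), with the trend removed (-0.71, adjusted p = 0.158) and in 1 fit of all groups (adjusted p = 0.0512).

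In the wider AP-1 and ATF family, 2 of 16 genes tested passed at E11.5 and both were higher in RaraDN stomach, compared with 3.07% of all genes tested that were higher. Jdp2, which pairs with Jun and represses AP-1 targets, averaged 33.03 ± 13.1 CPM in RaraDN and 3.84 ± 1.03 CPM in control stomach (edgeR log2 fold change 3.08, SE 0.41, adjusted p = 0.0018). The list's median log2 fold change was 0.61, against -0.047 for all genes tested. At E13.5, 0 of 14 passed with edgeR, with a median of 0.13 against 0.061 for all genes tested. DESeq2 and limma-voom also called 0 of the list there, compared with 14.3% and 9.08% of all genes, and 2 had an unadjusted p below 0.05, compared with 23.6% of all genes. Atf4, the effector of the integrated stress response, averaged 231 ± 13.9 CPM in RaraDN and 274 ± 55.5 CPM in control colon, and Atf2 averaged 66.1 ± 10.8 CPM in RaraDN and 57.4 ± 30.0 CPM in control colon.

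Heat shock genes, which respond to unfolded proteins and to heat, passed for 2 of 20 at E11.5, compared with 6.00% of all genes, and for 2 of 19 at E13.5, compared with 8.33%, with median log2 fold changes of 0.020 and 0.38 against -0.047 and 0.061 for all genes tested. Hspa1a and Hspa1b, near-identical inducible HSP70 genes whose reads may be shared between them, were both called higher in RaraDN stomach, with 3.10, 399.9, 8.58 and 1.14 CPM of Hspa1a in RaraDN against 0.218 to 1.18 CPM in control, and 10.6, 404, 9.16 and 7.97 CPM of Hspa1b in RaraDN against 1.40 to 1.80 CPM in control. RaraDN library 2, the library with high Atf3, was far above the others. The remaining RaraDN libraries were above all control libraries for Hspa1b, while RaraDN library 4 lay within the control range for Hspa1a. The log2 fold change of Hspa1a was 7.61 (SE 1.90, edgeR adjusted p = 0.0388) and 3.00 without RaraDN library 2 (adjusted p = 0.119), and it was also lost without any 1 control library (adjusted p up to 0.129). That of Hspa1b was 6.02 (SE 1.39, edgeR adjusted p = 0.0283) and 2.48 without RaraDN library 2 (adjusted p = 0.0290), and it was lost without any 1 control library (adjusted p up to 0.0979). Neither passed with limma-voom (Hspa1a 4.85, adjusted p = 0.433, Hspa1b 4.08, adjusted p = 0.309) or with no filter on low counts (adjusted p of 0.0940 and 0.0589). At E13.5, Hspe1, a mitochondrial chaperone, averaged 357 ± 9.998 CPM in RaraDN and 609 ± 144 CPM in control colon (edgeR log2 fold change -0.73, SE 0.17, adjusted p = 0.0284), and with the length and GC trend removed its log2 fold change was -0.050 (adjusted p = 0.908). The Hspe1 call was also lost without any 1 RaraDN library and without control library 2 or 3 (adjusted p up to 0.137). Hspb1, a small heat shock protein, averaged 1.11 ± 0.364 CPM in RaraDN and 11.2 ± 7.29 CPM in control colon (log2 fold change -3.26, SE 0.84, edgeR adjusted p = 0.0398), a call that was lost without any 1 library other than control library 4, with adjusted p up to 0.167. Hspb1 was also lost with limma-voom (adjusted p = 0.172), with the trend removed (-2.31, adjusted p = 0.171), in 1 fit of all groups (adjusted p = 0.101) and without both hemoglobin-rich libraries (adjusted p = 0.197).

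Genes of the unfolded protein and integrated stress response did not pass at either age, with 0 of 16 by edgeR at E11.5 (4 at an unadjusted p below 0.05) and 0 of 16 at E13.5 (3 at an unadjusted p below 0.05), where 19.4% and 23.6% of all genes had such a p. Hspa5 and Hsp90b1, chaperones of the endoplasmic reticulum and the most abundant of the list, averaged 1154 ± 303 and 1100.5 ± 282 CPM in RaraDN and 1459 ± 376 and 1171 ± 155 CPM in control stomach, and 1998 ± 235 and 1472 ± 233 CPM in RaraDN and 1389 ± 252 and 981 ± 244 CPM in control colon. DESeq2 called both at E13.5, and so did edgeR without control library 1 (adjusted p of 0.0406 and 0.0369). The list's median log2 fold change was 0.19 in the stomach and 0.027 in the colon, against -0.047 and 0.061 for all genes tested. Of this list DESeq2 called 1 gene in the stomach and 3 in the colon, and limma-voom 0 in the stomach and 1 in the colon.

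Among p53 targets, 1 of 13 passed at E11.5, compared with 6.00% of all genes, and 2 of 14 at E13.5, compared with 8.33%, with median log2 fold changes of 0.21 and -0.0047 against -0.047 and 0.061 for all genes tested. Bbc3, which encodes the cell death protein PUMA, was higher in RaraDN stomach, at 24.7 ± 17.0 CPM in RaraDN and 5.44 ± 0.713 CPM in control (log2 fold change 2.16, edgeR adjusted p = 0.0376), and lower in RaraDN colon, at 3.64 ± 0.487 CPM in RaraDN and 16.1 ± 3.22 CPM in control (log2 fold change -2.10, edgeR adjusted p = 0.0268). Bax, another cell death gene, was lower in RaraDN colon, at 247 ± 8.71 CPM in RaraDN and 468 ± 97.4 CPM in control (log2 fold change -0.88, edgeR adjusted p = 0.0110), and its log2 fold change was 0.043 with the length and GC trend removed (adjusted p = 0.918). The calls were lost in some fits with 1 library left out. That of Bbc3 at E11.5 was lost without RaraDN library 2 or 4 or any 1 control library (adjusted p up to 0.129). That of Bbc3 at E13.5 was lost without any 1 RaraDN library or control library 3 (adjusted p up to 0.139), and that of Bax without any 1 RaraDN library (adjusted p up to 0.0720). In those fits log2 fold changes were 1.68 to 2.25 (Bbc3, E11.5), -2.19 to -1.98 (Bbc3, E13.5) and -0.89 to -0.84 (Bax). Calls over all genes also fell at E13.5, from 1007 to 25, 44 and 324 without RaraDN library 1, 2 or 3. At E11.5 they numbered 745, and 324 to 700 without 1 control library, 844 without RaraDN library 2 and 667 without RaraDN library 4. The method mattered too: with limma-voom Bbc3 did not pass at E11.5 (adjusted p = 0.0970) or E13.5 (adjusted p = 0.0551), at E13.5 Bbc3 was lost with the trend removed (-1.51, adjusted p = 0.111) and without both hemoglobin-rich libraries (adjusted p = 0.107), and Bax without those libraries (adjusted p = 0.0508).

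Among MAP kinase and serum response factor genes that act upstream of immediate early genes, 1 of 31 passed at E11.5, compared with 6.00% of all genes, with a median log2 fold change of -0.15 against -0.047 for all genes tested. Rps6ka1, a kinase activated by ERK, averaged 111 ± 29.7 CPM in RaraDN and 43.6 ± 6.30 CPM in control stomach (log2 fold change 1.32, SE 0.26, edgeR adjusted p = 0.0119), a call lost without control library 1 (adjusted p = 0.0569).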

How the data were processed

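RNA was amplified from sorted cells with a SMART kit, libraries were made with Nextera XT, and single-end reads were mapped by the authors with the RNA-seq unified mapper (RUM). The deposited counts are raw reads per RefSeq transcript after removal of repeat and ribosomal reads. The genome build was not given in the sources used here, nor was strandedness or the rule that marked 1 transcript per gene as best. Reads carry no molecular identifiers, so floors (3 counts) cover counting error only. Quantile-normalised log2 columns and columns of the authors' own comparisons (fold changes and p-values) were not used, and 43170 rows with no gene name were left out.

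Counts of 17090 genes in 15 libraries of 4 groups, each from the organ of 1 embryo, were tested with edgeR 4.0.16 (R 4.3.3; TMM factors, filterByExpr, robust quasi-likelihood test, Benjamini-Hochberg adjustment, threshold 0.05), with 1 fit per age, and 1 fit of all groups for the difference between the ages and between the controls. Scripts were tested on simulated data. Alternatives were RLE or no scaling, no filter, no robust step, DESeq2 1.42.0, limma-voom (limma 3.58.1), a replicate block, removal of each library's trend with transcript length and GC content, hemoglobin genes left out, both hemoglobin-rich control libraries left out, and each library left out. Correlations used log-CPM (prior count 2) with group means removed. Figures were drawn with matplotlib 3.10.9.

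The 10 genes and all lists were chosen with earlier results of these data known. Named genes are the 10 in every library, up to 3 called genes per other list and age with the lowest adjusted p (or the 2 most abundant where none was called), and Rara. Also named are the 5 genes most like Fos and the 5 most like the mean of the 8 genes tested at both ages. Cyr61, Zfp36 and Arc at E11.5 fell outside this rule and were chosen after their values were seen. Some genes that the rule names are not reported here.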

Additional observations from a re-analysis of the deposited data

Results flagged for a closer look

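Atf3 was at 43.5 CPM in RaraDN E11.5 stomach library 2, with the other 3 libraries of the group at 0.531 CPM or less. Its gap to the nearest of them was above the 95% limit of an outlier rule for groups of this size. That limit assumes normally distributed values, and chance alone would mark about 1 in 20 groups. Other genes and groups were searched with the same rule, so a mark can arise by chance. The mark therefore describes these values only and does not decide whether the gap was due to chance.

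The effect of RaraDN on Jund differed between the ages by -1.73 on the log2 scale (E13.5 minus E11.5, edgeR adjusted p = 0.0171). Jund was higher in 4 of 4 RaraDN stomach libraries than in every control stomach library, and 3 of 4 control colon libraries were above all 3 RaraDN colon libraries. Groups did not overlap for 15.7% of all genes tested at E11.5, and 14.5% of all genes tested were called between the ages. The Jund call was lost with the replicate block (edgeR adjusted p = 0.0650) and with the length and GC trend removed (adjusted p = 0.117). It was also lost without both hemoglobin-rich control libraries (adjusted p = 0.0665) and without RaraDN E13.5 colon library 2 (adjusted p = 0.0579).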

How the results depend on the processing

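Of 342 values of the 10 genes for RaraDN against control under alternatives, 290 kept their direction and side of the threshold, 33 changed direction, 9 gained a call and 10 lost one. Of 102 values of Jun, Junb, Jund and Btg2 between the ages or the controls, 88 kept both, 7 gained a call and 7 lost one. At E11.5, where edgeR called 0 of the 10, 1 was called in 1 fit of all 4 groups (Jund), 2 by DESeq2 (Junb and Jund), 1 with the length and GC trend removed (Jun), 1 with that and the replicate block (Jun), and 0 to 2 with 1 library left out. At E13.5 the count was 0 in place of 1 with no scaling factors, with the replicate block, with the block and the trend removed and without both hemoglobin-rich control libraries, and 0 to 1 with 1 library left out. Between the ages it was 3 by DESeq2 (Junb, Jund and Btg2), 0 with the block, 0 without the hemoglobin-rich libraries and 0 to 2 with 1 library left out. Between the controls it was 0 with the trend removed, 0 without the hemoglobin-rich libraries and 1 with any 1 library left out. Other immediate early genes called at E11.5 were 12 by DESeq2, 12 with the trend removed, 12 with that and the block, and 5 to 12 with 1 library left out. At E13.5 they were 1 in 1 fit of all groups, 5 by DESeq2, 1 with the block, 0 with the block and the trend removed, 0 without the hemoglobin-rich libraries and 0 to 4 with 1 library left out.

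Jund between the ages was -1.52 with the block (adjusted p = 0.0650) and -0.68 with the block and the trend removed (adjusted p = 0.223), and Btg2 at E13.5 was -1.43 without scaling (adjusted p = 0.0540) and -1.57 with the block (adjusted p = 0.0694). Btg2 between the ages passed with the trend removed (-2.24, adjusted p = 0.0145) and with the block as well (-2.26, adjusted p = 0.0345). With the block, adjusted p was 0.0799 for Zfp36, 0.0612 for Rps6ka1, 0.109 for Hspa1b (3.52) and 0.107 for Bbc3 at E11.5, and 0.0587 for Gadd45a, 0.0812 for Bbc3 and 0.0504 for Hspb1 at E13.5. Same-numbered libraries correlated with r of -0.171 to 0.195 at E11.5 and 0.0197 to 0.0434 at E13.5. Libraries of different numbers had r of -0.299 to 0.252 at E11.5 and -0.0921 to 0.0859 at E13.5. With so few libraries, and with group means removed, these values cannot tell whether the numbers pair the libraries. The causes of the differences between settings were not tested.

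Some signs changed near 0 and others did not. Before any change of setting, the edgeR log2 fold changes at E13.5 were -0.64 (Jund), -0.25 (Ier2) and 0.23 (Atf2). Log2 fold changes with the trend removed were -0.083 (Ier2), 0.0082 (Hspa5) and 0.37 (Hsp90b1) at E11.5, and -0.00027 (Jun), -0.053 (Egr1), -0.40 (Atf2), 0.041 (Atf4), 0.043 (Bax), 0.10 (Jund) and 0.39 (Ier2) at E13.5. With the block as well they were -0.18 (Ier2), 0.014 (Hspa5) and 0.35 (Hsp90b1) at E11.5, and -0.034 (Jun), -0.18 (Egr1), -0.039 (Atf2), 0.087 (Atf4), 0.12 (Jund) and 0.20 (Ier2) at E13.5. Btg2 at E11.5 was -0.0052 with limma-voom and -0.073 with the block. Dusp1 at E13.5 was -0.019 with DESeq2 and with RLE scaling, -0.023 in 1 fit of all groups, -0.041 with limma-voom and -0.051 without the hemoglobin-rich libraries, where Atf2 was -0.15 and Ier2 0.058. With 1 library left out, ranges were -0.67 to 0.0033 (Fos), -0.18 to 0.45 (Ier2), -0.15 to 0.30 (Btg2) and -0.25 to 0.029 (Hsp90b1) at E11.5, and -2.18 to 0.23 (Fos), -0.44 to 0.70 (Egr1) and -0.21 to 0.22 (Dusp1) at E13.5.

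Removing the trend moved the median of all genes to 0.20 at E11.5, -0.11 at E13.5, -0.29 between the ages and 0.21 between the controls. All genes called numbered 745 at E11.5 (1248 with the trend removed, 1363 by DESeq2, 350 with the block, 324 to 1143 with 1 library left out) and 1007 at E13.5 (237 with the trend removed, 1723 by DESeq2, 212 without the hemoglobin-rich libraries, 25 to 1258 with 1 library left out). Fosb and Atf3 were near the limit of detection.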
